A study of Mus musculus with 16 samples.

Results

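Of the genes that copy DNA, 31 were followed in liver RNA of Pdgf-c transgenic and wildtype mice. They were taken from a list of origin licensing, helicase, polymerase and nucleotide synthesis genes, and all 31 were measured among the 19938 genes that have an array row with 1 gene symbol. Where a gene had several such rows, the one with the highest average was used. The transgenic group held 7 samples of mice labelled Pdgf-c transgenic, and the wildtype group held 9 samples. Both groups are on the C57BL/6 background and their tissue is labelled liver. Pdgf-c encodes a growth factor that acts on fibroblasts and stellate cells; the promoter of the transgene and the sex and age of the mice are not given in the sources used here. The series set out to ask whether stromal cells of the liver take part in tumour formation. For each sample, 1 Affymetrix array of the type Mouse Gene 1.0 ST was used. Although the samples carry the cell type label stromal cells, total hepatic RNA was extracted according to the protocol. The hepatocyte transcript Alb averaged 13.54 in the transgenic and 13.56 in the wildtype samples on the log2 scale, in a table whose values ran up to 14.67. The samples are therefore treated as whole liver. Whether each sample is a different mouse is not stated in the labels; the p-values below therefore cover the spread among these 16 samples alone, and on arrays their number limits the precision.

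DNA replication starts from origins that are licensed before S phase, when the loaders Cdc6 and Cdt1 place the ring of Mcm2 to Mcm7 on DNA. Cyclin E kinase and the E2F transcription factors promote entry into S phase, and Cdc45 and the GINS complex turn the MCM ring into a running helicase. Primase, the polymerases, the sliding clamp Pcna and ligase then copy the strands from nucleotides that ribonucleotide reductase, thymidylate synthase and thymidine kinase supply. Most hepatocytes of an adult liver are outside the cell cycle and re-enter it after injury or loss of tissue.

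Many replication genes carry binding letters of E2F factors near their start, and windows of 4 genes are shown because 2 of them rose, 1 stayed uncalled and 1 fell in the values below. Promoters came from RefSeq on build GRCm38.p6, and 26 of the 31 genes had a window there; Ccne2, Gins1, Gins2, Mcm4 and Pole did not match. The letters searched on both strands were TTTCCCGC, TTTGGCGC, TTTCGCGC and TTTGCCGC for E2F and CCAAT for the CCAAT box, from 250 bases before to 50 after the start. Capitals mark these matches in the 250 bases before the start, each sequence written 5′ to 3′ on the strand of its gene.
Mcm6, chr1:128359706-128359955, minus strand: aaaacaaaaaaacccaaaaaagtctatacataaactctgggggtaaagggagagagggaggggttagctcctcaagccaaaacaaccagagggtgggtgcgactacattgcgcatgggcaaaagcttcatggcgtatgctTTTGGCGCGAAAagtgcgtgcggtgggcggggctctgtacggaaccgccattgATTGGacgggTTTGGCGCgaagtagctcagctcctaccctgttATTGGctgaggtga
Mcm5, chr8:75109259-75109508, plus strand: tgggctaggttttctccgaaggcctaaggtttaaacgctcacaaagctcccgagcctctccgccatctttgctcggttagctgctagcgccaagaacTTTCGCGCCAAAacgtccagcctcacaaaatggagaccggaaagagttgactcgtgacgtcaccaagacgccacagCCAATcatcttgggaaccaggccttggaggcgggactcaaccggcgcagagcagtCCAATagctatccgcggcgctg
Mcm7, chr5:138171884-138172133, minus strand: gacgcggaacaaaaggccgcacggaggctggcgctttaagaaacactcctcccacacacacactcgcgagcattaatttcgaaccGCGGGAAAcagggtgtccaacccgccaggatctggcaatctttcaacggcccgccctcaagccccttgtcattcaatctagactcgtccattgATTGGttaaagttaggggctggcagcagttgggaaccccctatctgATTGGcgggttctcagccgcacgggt
Ccne1, chr7:38107491-38107740, minus strand: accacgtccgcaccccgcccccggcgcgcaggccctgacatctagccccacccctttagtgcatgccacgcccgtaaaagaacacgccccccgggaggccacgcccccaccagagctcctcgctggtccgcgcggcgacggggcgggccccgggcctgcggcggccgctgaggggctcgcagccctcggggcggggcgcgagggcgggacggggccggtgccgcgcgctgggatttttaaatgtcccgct

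In Mcm6, TTTGGCGC began 110 and 47 bases before the start, and the first of these overlapped TTTCGCGC on the other strand. Mcm5 held the same overlapping pair of letters, beginning 153 bases before its start. The Mcm7 window held 1 match before the start, to TTTCCCGC on the other strand, and 1 after the start, to TTTCGCGC. The Ccne1 window held none. A second Mcm7 window, of another start, held no E2F letters. Over all genes of the list with a window, 10 of 26 held at least 1 of the 4 E2F words, and 10 of their 31 windows did, whereas 2.26% of all 32851 windows did. The CCAAT box was in 15 of the 26 genes and in 17 of their 31 windows, whereas 37.4% of all windows held it. E2F letters stood in 5 of 6 genes that rose (Lig1, Mcm3, Mcm5, Mcm6 and Uhrf1) and in 5 of 19 genes that were not called (Cdc6, Cdt1, Mcm7, Pola1 and Rfc3). The CCAAT box likewise stood in 5 of the 6 genes that rose, and in 10 of the 19 that were not called. Mcm4 and Pole, which also rose, had no window. Lig1, Uhrf1, Mcm7 and Fen1 have several windows each, which gives them more positions to match. These counts describe letters and were given no test.

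A minority of the replication genes rose, and 4 of the 8 that did encode subunits of the MCM helicase. Of the 31 genes, 8 were higher in the transgenic livers (Mcm3, Mcm4, Mcm5, Mcm6, Pole, Lig1, Rrm1 and Uhrf1), 1 was lower (Ccne1) and 22 were not called at an adjusted p of 0.05 (limma, Benjamini-Hochberg over all 35557 rows); 14 had an unadjusted p under 0.05. The higher genes make up 25.8% of the list, where 12.1% of all genes were called higher and 15.5% of the 13820 genes whose mean level lay within the range of the list, 4.38 to 10.05. The 1 lower gene makes up 3.23% of the list, where 11.1% of all genes were called lower. In either direction 9 of the 31 genes were called, beside 23.2% of all genes; over all rows, unnamed ones included, 10.6% were higher and 8.26% lower. The median difference, transgenic minus wildtype, was 0.11 on the log2 scale over the list and -0.04 over all genes, and 22 of the 31 differences were above 0, against 39.9% of all genes. After quantile normalization the list median was 0.04, beside -0.06 over all genes, and with arrays centred on medians it was 0.06, beside -0.09 over all genes. The list was chosen with earlier results of these samples known, and no test was made of the list as a whole. Only Mcm6 was called with a change of at least 1.5-fold. The direction of small changes over the array depended on the scaling: 56.3% of called rows were higher as deposited, and 38.0% once array medians had been set equal. With that centring, 7 genes of the list were higher and 2 lower, where 9.33% of all genes were higher and 16.8% lower.

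**Figure D1:**
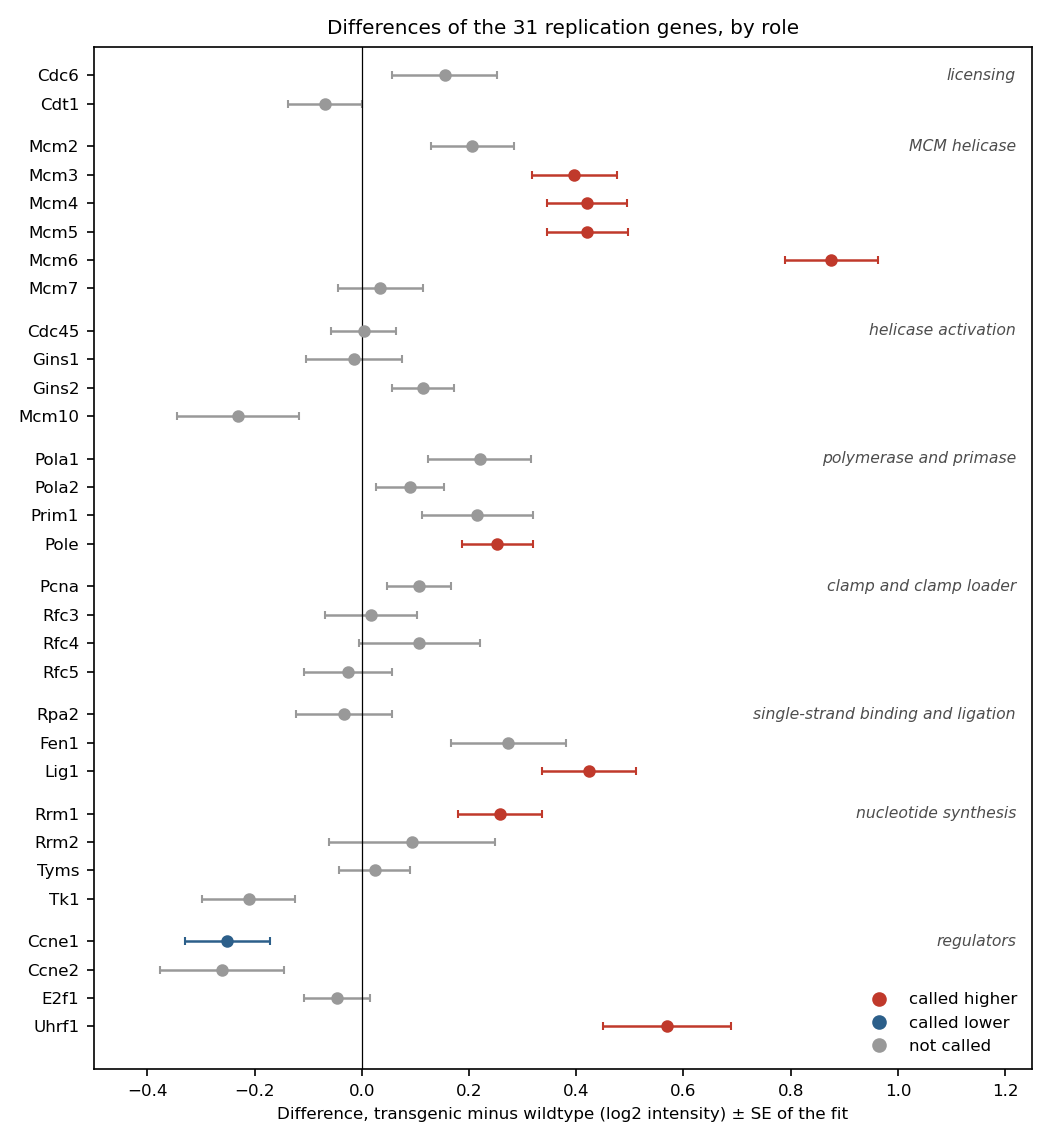
Difference between transgenic and wildtype livers (log2 intensity, x axis) for each of the 31 replication genes, grouped by role from the top down; points are the estimates of the fit and bars their standard errors. Mcm6 stands farthest to the right at 0.88, and Ccne1 at -0.25 is the gene called lower.

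The 6 subunits of the MCM ring, which unwinds DNA ahead of the fork, did not change by equal amounts. Mcm6 had a lowest, median and highest log2 intensity of 6.67, 6.83 and 7.11 in the transgenic livers, against 5.76, 5.92 and 6.29 in the wildtype livers. All 7 transgenic livers lay above all 9 wildtype livers, and Mcm6 rose 1.84-fold (log2 difference 0.88 ± 0.0864, SE, 7 against 9 arrays, limma adjusted p = 7.54e-07). Mcm5 had values of 6.05, 6.17 and 6.57 in the transgenic livers, against 5.68, 5.76 and 6.01 in the wildtype livers. Its groups did not overlap either, and it rose 1.34-fold (0.42 ± 0.0756, limma adjusted p = 0.000517). These were the 2 genes of the 31 without overlap between groups, where 5.43% of all genes were higher and 3.65% were lower in this way.

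Mcm4 had values of 5.58, 5.69 and 5.85 in the transgenic livers, against 5.04, 5.24 and 5.61 in the wildtype livers. The highest wildtype liver, replicate 2, exceeded 2 of the transgenic livers, and 5 transgenic livers lay above all wildtype ones. Mcm3 had values of 5.27, 5.50 and 5.79 in the transgenic livers, against 4.93, 5.09 and 5.35 in the wildtype livers, and 6 of the 7 transgenic livers lay above all wildtype livers. Mcm4 rose 1.34-fold (0.42 ± 0.0742) and Mcm3 1.32-fold (0.40 ± 0.0791), with limma adjusted p-values of 0.000444 and 0.00135. Mcm2 had values of 6.07, 6.25 and 6.52 in the transgenic livers, against 5.86, 6.03 and 6.22 in the wildtype livers, so the groups overlapped in part. Its difference of 0.21 ± 0.077 was not called (limma adjusted p = 0.0729). Mcm7 had values of 6.92, 7.11 and 7.23 in the transgenic livers, against 6.74, 6.99 and 7.29 in the wildtype livers, with the transgenic range inside the wildtype range. The Mcm7 difference was 0.03 ± 0.0789 with a 95% interval of -0.13 to 0.20 (limma adjusted p = 0.818), an interval whose upper end lies below the estimates of Mcm3, Mcm4, Mcm5 and Mcm6.

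**Figure D2:**
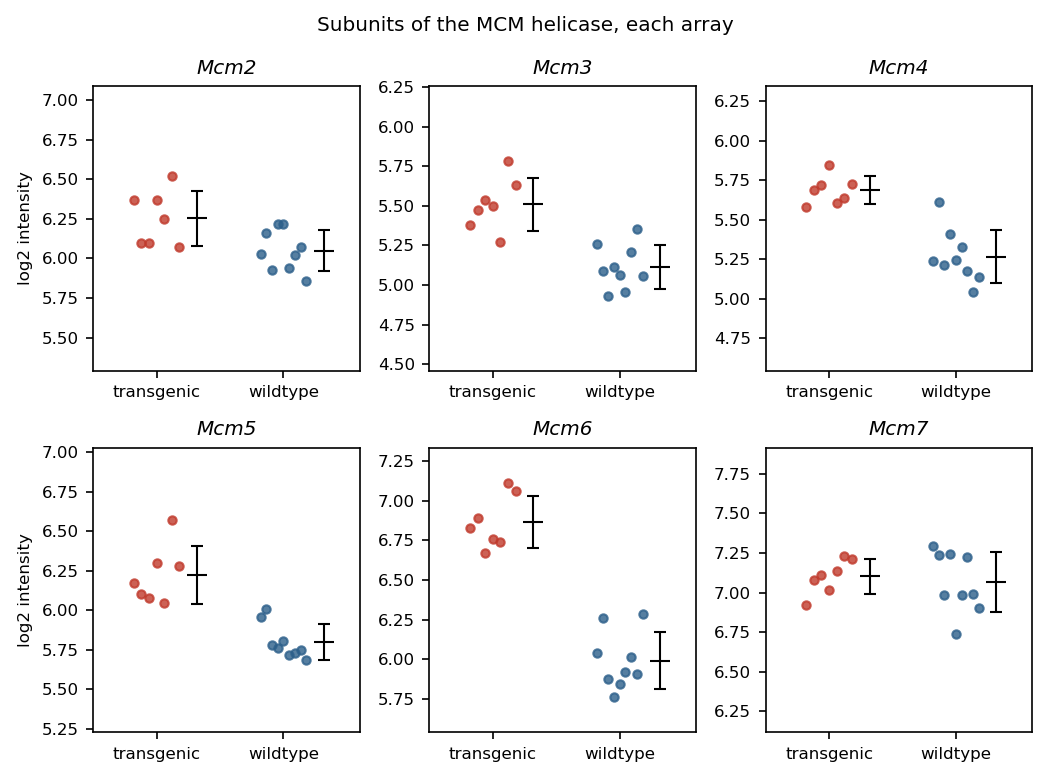
Log2 intensity (y axis, each panel spanning the same range) of the 6 MCM subunits in each transgenic (left) and wildtype (right) liver; each point is 1 array, and the bar beside it gives the mean and SD. The groups separate in Mcm5 and Mcm6 and lie over each other in Mcm7.

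Whether 2 subunits moved by unequal amounts was tested on the difference between their rows within each array, with an exact two-sided permutation test over the 11440 ways to divide the arrays. All 15 pairs of the 6 subunits were compared, a family added after the values were seen, and 9 pairs differed after Benjamini-Hochberg adjustment over the 15. Mcm6 rose more than each of the other subunits: the excess was 0.84 ± 0.0958 over Mcm7, 0.67 ± 0.118 over Mcm2, 0.48 ± 0.0882 over Mcm3, 0.46 ± 0.107 over Mcm4 and 0.45 ± 0.0763 over Mcm5 (SE, exact permutation, adjusted p at most 0.00262). Mcm3, Mcm4 and Mcm5 each rose more than Mcm7, by 0.36, 0.39 and 0.39 (exact permutation, adjusted p at most 0.00295). Mcm5 also rose more than Mcm2 (Mcm2 minus Mcm5 -0.21 ± 0.0695, exact permutation, adjusted p = 0.0128). Among Mcm3, Mcm4 and Mcm5 no pair was called, with differences of -0.02 to -0.00121 and standard errors of 0.0664 to 0.105. Rows of different genes may report a given change to different degrees, so these are differences between rows.

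The 2 loaders and the 4 partners that activate the helicase were not called (limma). Cdc6 differed by 0.15 ± 0.0974 and Cdt1 by -0.07 ± 0.0693 (limma adjusted p = 0.319 and 0.563). Cdc6 spanned 5.15, 5.39 and 5.62 in the transgenic livers, against 4.75, 5.28 and 5.43 in the wildtype livers. Cdc45, which joins the ring to form the active helicase, differed by 0.0036 ± 0.0607, and its 95% interval of -0.12 to 0.13 ends below the change of Mcm6. The GINS subunits Gins1 and Gins2 differed by -0.01 ± 0.09 and 0.11 ± 0.0581. Mcm10, a replication initiation factor that is not part of the ring, stood at -0.23 ± 0.113 (limma adjusted p = 0.182).

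In the copying machinery, 1 of 4 polymerase and primase genes was called higher. So were 1 of 3 genes of single-strand binding and ligation and 0 of 4 clamp and clamp loader genes. Of all genes 12.1% were higher, and counts this small say nothing of the machinery as a whole. Pole, the catalytic subunit of the leading-strand polymerase epsilon, had values of 4.46, 4.60 and 4.79 in the transgenic livers, against 4.21, 4.35 and 4.52 in the wildtype livers. It rose 1.19-fold (0.25 ± 0.0664, limma adjusted p = 0.0108), and 6 of the 7 transgenic livers exceeded all wildtype livers; its row is dim, below the table median of 5.26. The subunits of polymerase alpha-primase, which lays down primers, differed by 0.22 ± 0.0955 for Pola1, 0.09 ± 0.0632 for Pola2 and 0.22 ± 0.104 for Prim1, none of them called (limma adjusted p = 0.128, 0.382 and 0.174). Lig1, the ligase that joins Okazaki fragments, had values of 6.03, 6.31 and 6.72 in the transgenic livers, against 5.68, 5.87 and 6.10 in the wildtype livers. Of the transgenic livers, 6 lay above all wildtype livers, and Lig1 rose 1.34-fold (0.42 ± 0.0877, limma adjusted p = 0.00184). Fen1, the flap nuclease that prepares the same ends for ligation, differed by 0.27 ± 0.106 and was not called (limma adjusted p = 0.0859); the difference between the Fen1 and Lig1 changes, -0.15 ± 0.118, was not called either (exact permutation, adjusted p = 0.392).

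Pcna, the clamp that holds the polymerases on DNA and a common marker of cycling cells, had values of 9.83, 10.11 and 10.36 in the transgenic livers, against 9.84, 10.02 and 10.10 in the wildtype livers. The transgenic livers spread to both sides of the wildtype range, with 4 above it and replicate 1 below it, and the difference was 0.11 ± 0.0589 (95% interval -0.02 to 0.23, limma adjusted p = 0.245). Without transgenic replicate 1 it was called, at 0.15 (limma adjusted p = 0.0368). A second row annotated to Pcna gave 0.12 ± 0.0622 (limma adjusted p = 0.222). The clamp loader subunits Rfc3, Rfc4 and Rfc5 differed by 0.02 ± 0.0862, 0.11 ± 0.113 and -0.03 ± 0.0819, and Rpa2, which coats single strands, by -0.03 ± 0.0893; none was called. Transgenic replicate 1 was the lowest of its group in Pcna, Rfc3, Rpa2 and Rfc4.

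Of the 4 nucleotide synthesis genes, 1 was called, a share near the 23.2% of all genes called in either direction. Rrm1, the large subunit of ribonucleotide reductase, had values of 6.59, 6.75 and 7.05 in the transgenic livers, against 6.37, 6.56 and 6.68 in the wildtype livers. It rose 1.2-fold (0.26 ± 0.0784, limma adjusted p = 0.0271), with 4 of the 7 transgenic livers above all wildtype livers. This call was lost without transgenic replicate 2, 6 or 7 or wildtype replicate 7, and after quantile normalization or centring, with adjusted p-values over the alternatives from 0.0138 to 0.105. Rrm2, the small subunit whose level limits the enzyme in S phase, had values of 6.39, 6.83 and 7.38 in the transgenic livers, against 6.38, 6.64 and 7.44 in the wildtype livers. The groups overlapped throughout and its spread was the widest of the list, with an SD of 0.363 in the transgenic and 0.316 in the wildtype livers. Rrm2 differed by 0.09 ± 0.155 with a 95% interval of -0.23 to 0.42 (limma adjusted p = 0.743), and its change was not shown to differ from that of Rrm1 (difference -0.16 ± 0.19, exact permutation, adjusted p = 0.616). Tyms, which makes thymidylate, differed by 0.02 ± 0.066. Tk1, the thymidine kinase of S phase, stood at -0.21 ± 0.0872 (limma adjusted p = 0.108), and a second Tk1 row gave -0.21 ± 0.100 (limma adjusted p = 0.173). The Tk1 row was called lower with arrays centred on their medians and without transgenic replicate 5.

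Among the 4 regulators, Uhrf1 rose and Ccne1 fell. Uhrf1, which brings the maintenance DNA methyltransferase to newly copied DNA, had values of 4.43, 4.77 and 4.88 in the transgenic livers, against 3.65, 4.11 and 4.57 in the wildtype livers. Of the transgenic livers, 5 lay above all wildtype livers, and Uhrf1 rose 1.48-fold (0.57 ± 0.119, limma adjusted p = 0.00204), the second largest change of the list, on a row below the table median. Ccne1, a cyclin that drives entry into S phase, had values of 5.91, 6.21 and 6.46 in the transgenic livers, against 6.31, 6.40 and 6.71 in the wildtype livers. It was 1.19-fold lower (-0.25 ± 0.0791, limma adjusted p = 0.0324), with 5 of the 7 transgenic livers below all wildtype livers. The Ccne1 call was lost without transgenic replicate 1, 3 or 7 or wildtype replicate 1, 7 or 9, with adjusted p-values over the alternatives from 0.00457 to 0.112. Its paralog Ccne2 had values of 4.36, 4.48 and 4.95 in the transgenic livers, against 4.45, 4.83 and 5.17 in the wildtype livers and differed by -0.26 ± 0.116, which was not called (limma adjusted p = 0.139). The changes of the 2 cyclin genes differed by -0.01 ± 0.0972 (exact permutation, adjusted p = 0.993). E2f1, an activating E2F factor, had values of 5.46, 5.59 and 5.75 in the transgenic livers, against 5.46, 5.64 and 5.78 in the wildtype livers, and its difference of -0.05 ± 0.0618 was not called (95% interval -0.18 to 0.08, limma adjusted p = 0.677).

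**Figure D3:**
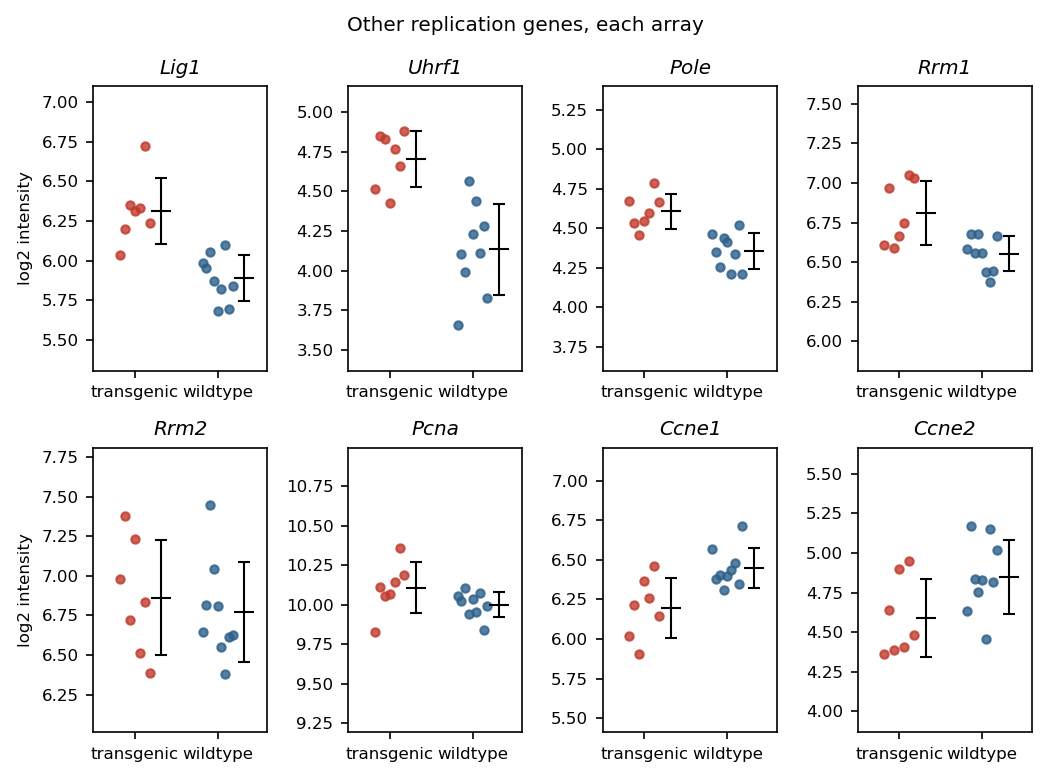
Log2 intensity (y axis, each panel spanning the same range) of 8 further replication genes in each transgenic (left) and wildtype (right) liver; each point is 1 array, and the bar beside it gives the mean and SD. Most transgenic points lie above the wildtype points in Lig1, Uhrf1 and Pole, the groups mix in Rrm2, and most transgenic points lie below in Ccne1.

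Of the 16 pairs of partner or paralog genes compared, the 5 called were those of Mcm6 with the other subunits, a gene whose change was known when the pairs were set. The remaining pairs, among them Tk1 with the mitochondrial kinase gene Tk2 (-0.00039 ± 0.103) and Cdc6 with Cdt1 (0.22 ± 0.123), had adjusted p-values of 0.213 to 0.993 (exact permutation over samples, smallest p possible 0.000175).

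The livers also differed among themselves. Averaged over the 31 genes, the deviation from the wildtype mean was 0.31 in transgenic replicate 6, where 29 of 31 genes lay above the wildtype mean, and 0.0067 in transgenic replicate 1, where 16 did. The other transgenic livers ranged from 0.06 to 0.17 and the wildtype livers from -0.11 to 0.07, so transgenic replicates 1 and 3 lay within the wildtype range. Over Mcm2 to Mcm7 alone the groups did not overlap, at 0.29 to 0.60 in the transgenic livers and -0.10 to 0.18 in the wildtype livers. That average includes Mcm5 and Mcm6, whose groups were already apart on their own, so it adds no independent result. Of all genes taken singly, 5.43% were higher and 3.65% were lower without overlap. Transgenic replicate 6 was the highest of all 16 arrays in Mcm2, Mcm3, Mcm5, Mcm6, Gins1, Pola1, Pole, Pcna, Rfc4, Lig1, Rrm1 and Cdc45. Without it, 7 genes were called higher. On the second principal component of the whole table, which held 11.5% of the variance, transgenic replicate 1 and wildtype replicate 9 were the ends. Leaving out both gave 9 genes higher, with Pcna added, and 0 lower.

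**Figure D4:**
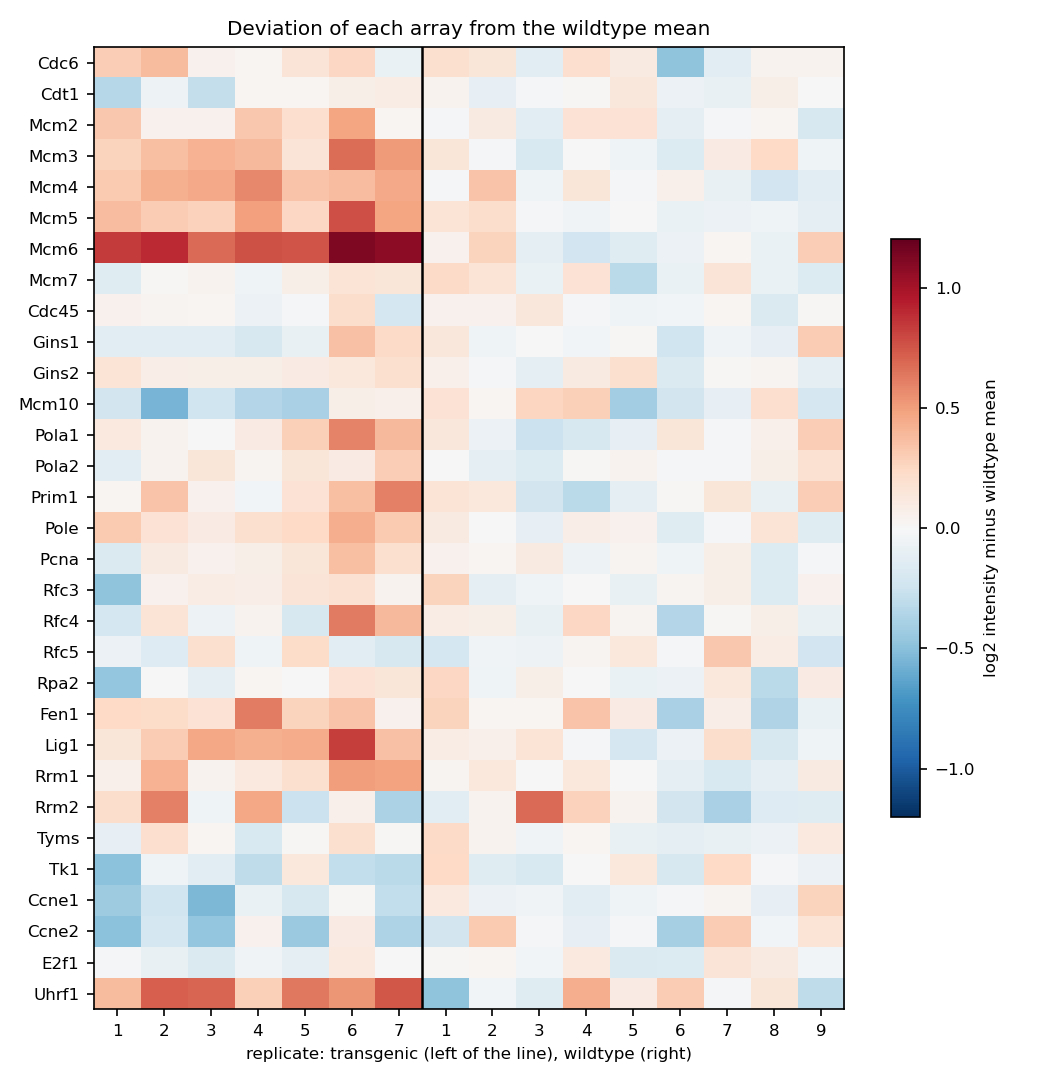
Deviation of each array from the wildtype mean (colour, log2 intensity) for the 31 replication genes (rows) in the transgenic livers (left of the line) and wildtype livers (right of it). Mcm6 is the row farthest above the wildtype mean in 6 of the 7 transgenic livers, with Uhrf1 in replicate 3, and transgenic replicate 6 is above the wildtype mean in 29 of 31 genes.

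Other genes of the pathway changed in both directions. Of 53 further replication and S-phase genes, 51 were measured, and 9 were higher and 4 lower (limma, same threshold), which is 17.6% and 7.84%, beside 12.1% and 11.1% of all genes; their median difference was 0.07. The count of higher genes was 5 of 51 after quantile normalization, where 11.2% of all genes were higher. It was 4 of 51 with arrays centred on medians, where 9.33% of all genes were. Under neither scaling did the share of higher genes in this list exceed that of all genes. Ccna2, the cyclin of S and G2 phase, rose 1.61-fold (0.69 ± 0.116, limma adjusted p = 0.000296), and its groups did not overlap. Pold4, an accessory subunit of polymerase delta, rose 1.38-fold (0.46 ± 0.0649), whereas Pold2, another accessory subunit of the same enzyme, was 1.4-fold lower (-0.49 ± 0.0776), with limma adjusted p-values of 4.18e-05 and 0.000151. Hells, a chromatin remodeller linked to DNA methylation, rose 1.36-fold (0.45 ± 0.0996). The other genes called higher were Asf1b, Atad2, Dut, Rpa1, Rnaseh2a and Timeless, at 0.15 to 0.38, and the other lower ones were Cdk2 (-0.32 ± 0.0936), the kinase partner of cyclin E and cyclin A, Pole4 (-0.29 ± 0.0678) and Rnaseh2c (-0.22 ± 0.0406). The 6 origin recognition subunits Orc1 to Orc6 were not called. Among 12 E2F and pocket protein genes, Rbl1, which encodes the retinoblastoma relative p107, was the gene called, 1.43-fold higher (0.52 ± 0.0858, limma adjusted p = 0.000229), with all 7 transgenic livers above all wildtype livers. None of these 12 was lower, and their median was -0.02.

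Genes of mitosis rose in 12 of 19 measured cases and fell in none, where 12.1% of all genes were higher and 11.1% lower, and their median difference was 0.33. Top2a, Bub1, Mki67 and Cdk1 led them at 1.02 ± 0.144, 0.63 ± 0.117, 0.52 ± 0.116 and 0.48 ± 0.104. The rows of Top2a, Bub1 and Mki67 are dim, with means over all arrays of 4.24, 3.24 and 4.69, below the table median of 5.26. Bub1 also lay below the 20th percentile of the table, 3.45. The median level of the list was 4.69. Top2a, which untangles DNA, and Bub1, a spindle checkpoint kinase, had no overlap between groups. Whether mitosis genes changed more often than replication genes was not tested.

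**Figure D5:**
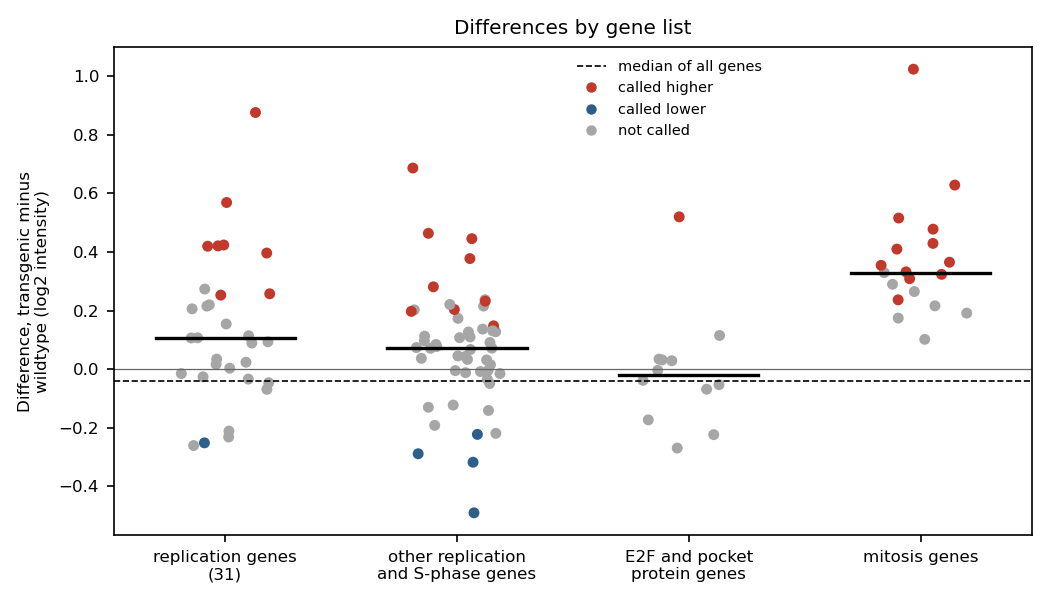
Difference between transgenic and wildtype livers (log2 intensity, y axis) for each gene of 4 lists (x axis); each point is 1 gene, solid bars are list medians and the dashed line is the median of all genes. The medians are 0.11 for the replication genes, 0.07 for the further replication genes, -0.02 for the E2F and pocket protein genes and 0.33 for the mitosis genes.

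Markers of several cell types moved between the groups. In whole-liver RNA, fewer cells of a type and less RNA per cell cannot be told apart. Of 10 stellate cell and fibroblast markers, 10 were higher, and their summed linear intensity was 6574 to 7862 in the transgenic livers and 1311 to 2214 in the wildtype livers. Of 10 macrophage and monocyte markers, 7 were higher and 2 lower. The 2 lower were Clec4f (-2.70 ± 0.184) and Vsig4. Vsig4 spanned 6.22 to 7.26 in the transgenic livers, against 7.48 to 8.59 in the wildtype livers. Ccr2, Cx3cr1 and Ms4a7 rose most, by up to 2.26 ± 0.128 in Ms4a7. In none of these genes did the groups overlap. The sums of all 10 were 1833 to 2893 in the transgenic livers and 1408 to 2600 in the wildtype livers. Mean level was highest in Lyz2 in the transgenic livers (10.37) and in Clec4f in the wildtype livers (9.17). This sum therefore adds opposite changes and is not read as a number of macrophages. Of 9 lymphocyte markers, 7 were higher and none lower. Their sums were 790 to 1075 in the transgenic livers and 354 to 477 in the wildtype livers. Cd52 had the highest level and the largest difference of them (1.73 ± 0.124) and so weighs most in the sum. The sum is therefore not read as a number of lymphocytes. Not called were Cd3e and Cd8a (limma adjusted p = 0.549 and 0.0545). Markers of sinusoidal endothelium were lower in 6 of 8 cases, with sums of 762 to 1086 in the transgenic livers and 2043 to 2675 in the wildtype livers. Of 6 erythroid markers 3 were lower and none higher, with sums of 944 to 1375 in the transgenic livers and 1236 to 1563 in the wildtype livers, and 0 of 5 cholangiocyte markers were called by limma, also at an unadjusted p of 0.05, with sums of 149 to 181 in the transgenic livers and 156 to 170 in the wildtype livers. Of 9 hepatocyte markers, 4 were lower and 1 higher, with sums of 71728 to 75225 in the transgenic livers and 73800 to 78046 in the wildtype livers, and Alb differed by -0.02 ± 0.0316. No marker row was at 0. The part of these cell types in the rise of the MCM genes was not tested.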

How the data were processed

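RNA of 7 transgenic and 9 wildtype livers was measured on Affymetrix Mouse Gene 1.0 ST arrays. The values are the deposited log2 intensities of 35557 rows, made with GCRMA per the submitters' processing notes; its version and settings are not given in the sources used here, and the log base was read from the range of the values, 0.71 to 14.67. Scanner files were not used here, so background and scan batches were not examined. The platform annotation paired 23410 rows with genes, 21789 of them with 1 symbol and 1621 with several; rows with several were named for no gene.

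All rows were fitted with limma 3.58.1 (R 4.3.3, lmFit and eBayes with trend, two-sided, no covariates) without a filter, with Benjamini-Hochberg adjustment. A call is an adjusted p under 0.05. Pairs of genes were compared by exact permutation over samples. Both procedures were tested on simulated data. Alternatives changed the normalization, centring, filters, floor, variance model, array weights, row choice, replicate block and samples. Groups came from the labels.

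The members, the gene lists and the pairs were chosen with earlier results of these data known. Named were all 31 members. Sample ranges were given for Mcm2 to Mcm7, Ccne1, Ccne2, Pcna, Rrm1, Rrm2, E2f1 and Uhrf1. They were also given for up to 6 other called members with a level above the table median. Up to 4 called genes by size were named from the further replication, E2F and pocket protein, mitosis and nucleotide supply lists. Cell type lists were given mainly as counts and sums. The ranges of Pole and Cdc6, the further called replication genes and the macrophage and lymphocyte genes named were added after their values were seen. Promoter sequences are from RefSeq (GRCm38.p6). Means are given with SD and differences with SE.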

Additional observations from a re-analysis of the deposited data

Results flagged for a closer look

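In Rfc3, which encodes a clamp loader subunit, transgenic replicate 1 had a log2 intensity of 6.35, far below the other transgenic livers, the nearest of which had 6.87; the gap was 0.795 of the whole range of the group. In Cdc6, which encodes an origin licensing factor, wildtype replicate 6 had 4.75, against 5.11 for the nearest wildtype liver, a gap of 0.519 of the range. Both are single samples that stood apart from their own group. Over the 62 combinations of gene and group examined, chance marks about 1 in 20. Neither gene was called between the groups, with or without any single array.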

How the results depend on the processing

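Over 27 alternatives the count of higher replication genes stayed at 7 to 9, and Mcm3, Mcm4, Mcm5, Mcm6 and Lig1 were called in all of them. Pole and Uhrf1 were called in the 26 that tested them, since their rows fall below the median-level filter. Rrm1 was called in 20 and Ccne1 in 19. The count of lower genes was 2 (Ccne1 and Tk1) with arrays centred on medians, and 0 with both end arrays left out, an alternative chosen after seeing the data; leaving out 1 array gave 0 to 2 lower. Leaving out 1 array gave 7 to 9 higher genes and a median difference of 0.09 to 0.13, whereas the median was 0.04 after quantile normalization, 0.06 with centring and 0.14 with both end arrays left out, against 0.11 as deposited. The further replication genes called higher numbered 5 after quantile normalization and 4 with centring, against 9 as deposited. Of all genes, 11.2%, 9.33% and 12.1% were higher under these settings, in that order. Centring raised the rows called lower to 4688, against 2936. The cause of these shifts was not tested. Calls were gained by Mcm2 (rows above the median level, without transgenic replicate 7), Pcna (without transgenic replicate 1, both end arrays left out), Fen1 (without wildtype replicate 4), Tk1 (centring, without transgenic replicate 5) and Pola1 (replicate block). The 5 pairs with Mcm6 stayed called in the 19 alternatives run for pairs.

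With the replicate number as a block, 8 replication genes were higher and 0 lower, with a median difference of 0.10; Rrm1 and Ccne1 were not called. Same-numbered samples did not deviate together (correlations of -0.0186 to 0.0859 over rows), and 0 of 7 transgenic samples correlated best with its own number, so the numbers were not taken as pairs. Probe signal over background cannot be judged from the deposited values. This limits what the dim rows can show, among them those of Pole, Uhrf1, Ccne2, Ccna2, Hells, Atad2, Rbl1, Top2a, Bub1 and Mki67. The marker rows of Ccr2 and Ms4a7 also lie below the table median.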

Other observations

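Genes that supply nucleotides or copy DNA outside S phase, in mitochondria or after damage, included 3 called genes among 7 measured, 1 higher and 2 lower, where 12.1% of all genes were higher and 11.1% lower; with so few genes these counts say nothing of the list as a whole. Twnk, the mitochondrial helicase, was 1.29-fold lower, with 6.87 ± 0.146 in the transgenic livers and 7.24 ± 0.0693 in the wildtype livers (SD, 7 and 9 arrays; difference -0.37 ± 0.0587, limma adjusted p = 0.000153), and all 7 transgenic livers lay below all wildtype livers. Tk2, the mitochondrial thymidine kinase, was 1.16-fold lower (-0.21 ± 0.0603, limma adjusted p = 0.0188). Samhd1, which degrades deoxynucleotides, was 1.18-fold higher (0.24 ± 0.0719, limma adjusted p = 0.0268). Rrm2b, the p53-induced small subunit of ribonucleotide reductase, differed by 0.12 ± 0.127 and was not called (limma adjusted p = 0.587).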
